A study of Homo sapiens with 20 samples.

Results

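Mitochondrial iron import, iron-sulfur assembly, transport for heme synthesis and heme breakdown were described through 8 listed genes: SLC25A37, SLC25A38, ABCB10, ISCU, HMOX1, HMOX2, BLVRA and BLVRB. The genes were chosen by name, for their known roles, with earlier results of these data known. All 8 had a row among the 60616 genes of the RNA count table and the 20401 genes of the footprint count table. Of these, 7 passed the filter on low counts in RNA and in footprints, and HMOX1 did not pass in either.

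The cells were K562, an established human leukaemia line with erythroid features. Wild type parental cells were compared with derivatives in which an exon of NAT10, the enzyme that places N4-acetylcytidine (ac4C) on RNA, had been removed with CRISPR-Cas9. Both genotypes grew in the same medium with no further treatment given in the labels, and no source used here says whether the knockout line is 1 clone. RNA-seq and ribosome profiling had 2 libraries per genotype, and acetylated RNA immunoprecipitation (acRIP-seq) had 1 deposited peak list per genotype for the ac4C antibody and 1 for an IgG control.

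Heme is made from glycine and succinyl-CoA in a path that begins and ends in the mitochondrion, where iron is inserted last. Iron enters the matrix through mitoferrins and is shared between heme and iron-sulfur clusters, which are built on a scaffold protein before transfer to client enzymes. Heme oxygenases open the heme ring to biliverdin, free iron and carbon monoxide, and biliverdin reductases turn biliverdin into bilirubin. Developing red cells raise iron import and heme synthesis strongly, and faults in some genes of these pathways cause anaemias with iron-loaded mitochondria.

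RNA-seq libraries held 10388717 to 18778485 counts and footprint libraries 621287 to 1220308. The 2 knockout RNA-seq libraries differed by little more than counting noise, with a chi-square per degree of freedom of 1.03 against 12.47 for the wild type pair. They were summed and counted as 1 sample, so their closeness below says nothing of biological spread. The labels do not say that the other libraries came from separate cultures, so each p-value rests on a spread that may be technical. NAT10 was at 49.9 and 49.2 CPM (a count scaled to library size) in knockout RNA against 135 and 148 CPM in wild type, a log2 change of -1.51 (SE 0.0852, edgeR adjusted p = 0.000102). Reads over all exons of NAT10 were counted, so these values do not show the deletion itself. Erythroid markers (7 genes, among them HBG1, GATA1 and TFRC) summed to 1093 to 1269 CPM in every RNA library, but single markers changed. By edgeR 3 rose, HBZ (log2 change 2.05), HBG1 (1.17) and HBG2 (0.55), and 1 fell, GATA1 (-0.42). Over all tested genes 5.17% were called higher and 8.79% lower in knockout. Monocyte and macrophage markers (8 genes) summed to 6.85 and 6.86 CPM in knockout against 14.9 and 12.7 in wild type RNA. Megakaryocyte markers (6 genes) summed to 9.39 and 9.74 against 26.5 and 24.5, in RNA, with GP9, PF4 and PPBP at 0 in every library. Lymphocyte markers (5 genes) reached at most 7.89 CPM in RNA and 8.87 in footprints, and fibroblast markers (5 genes) at most 3.54 and 8.87. Their part in the results below was not tested, and fewer cells of a type and less RNA per cell cannot be told apart in bulk libraries.

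The promoter sequences of 4 genes whose RNA changed are shown because 3 of them (ABCB10, ISCU and BLVRB) rose and 1 (BLVRA) fell in the same cells. Each run is the 250 bases before the annotated start of the gene, 5′ to 3′ on the gene's own strand, from RefSeq on GRCh38.p14. Of the 8 genes 6 matched the RefSeq promoter table, and SLC25A37 and HMOX1 were not among them. Capitals mark matches, on either strand, to 3 motifs. The first is the core bound by GATA factors, searched as AGATAA and as AGATAG, with TGATAA and also TGATAG as its other spellings. The others are the CACCC box of erythroid KLF factors, with the letters CCNCNCCC, and the element of Maf and NRF2 proteins, with the letters TGANNNNGC.
ABCB10, chr1:229558708-229558957, minus strand: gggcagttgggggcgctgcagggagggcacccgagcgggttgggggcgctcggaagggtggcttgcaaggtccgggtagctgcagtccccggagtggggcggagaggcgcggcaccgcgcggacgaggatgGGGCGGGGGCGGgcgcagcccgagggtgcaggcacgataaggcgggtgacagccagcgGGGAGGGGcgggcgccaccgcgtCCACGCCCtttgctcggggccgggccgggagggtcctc
ISCU, chr12:108562346-108562595, plus strand: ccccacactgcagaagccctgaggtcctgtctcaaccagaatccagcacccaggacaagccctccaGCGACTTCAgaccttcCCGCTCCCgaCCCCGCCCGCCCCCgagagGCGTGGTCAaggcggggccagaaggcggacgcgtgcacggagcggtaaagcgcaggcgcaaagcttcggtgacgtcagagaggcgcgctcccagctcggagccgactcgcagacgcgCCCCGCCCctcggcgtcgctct
BLVRA, chr7:43758430-43758679, plus strand: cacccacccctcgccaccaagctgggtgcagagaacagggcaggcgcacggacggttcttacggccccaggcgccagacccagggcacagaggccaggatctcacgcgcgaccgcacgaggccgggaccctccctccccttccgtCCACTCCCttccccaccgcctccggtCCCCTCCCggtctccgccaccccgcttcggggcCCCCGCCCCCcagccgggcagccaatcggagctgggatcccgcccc
BLVRB, chr19:40465746-40465995, minus strand: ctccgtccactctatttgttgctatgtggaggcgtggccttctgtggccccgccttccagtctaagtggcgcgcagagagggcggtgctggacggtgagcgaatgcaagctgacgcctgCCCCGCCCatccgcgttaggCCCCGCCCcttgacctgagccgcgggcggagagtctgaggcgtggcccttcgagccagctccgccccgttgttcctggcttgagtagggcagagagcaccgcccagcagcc

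None of these 4 windows held the GATA letters, which occurred in 22.3% of 35116 promoters of this length. The CACCC letters matched 4 times in ABCB10, 4 times in ISCU, 4 times in BLVRA and 2 times in BLVRB, against at least 1 match in 53.4% of all promoters. They overlap in part with the GC box (GGGCGG), which matched 4, 3, 2 and 6 times in the same order and in 42.6% of all promoters. The TGANNNNGC letters matched 2 times in ISCU and in 0 of the other 3, against 35.2% of all promoters. The windows were rich in G and C, at 77.2% in ABCB10, 69.6% in ISCU, 74.4% in BLVRA and 67.2% in BLVRB. The gene that fell and the genes that rose thus held the same motif classes apart from the TGANNNNGC matches of ISCU. A match describes letters and not a bound site.

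In RNA, 4 of the 7 tested genes rose in the knockout and 1 fell. The iron importer SLC25A37, its partner ABCB10, the iron-sulfur scaffold ISCU and the reductase BLVRB rose by 1.25-fold to 1.41-fold, and the reductase BLVRA fell to 0.69-fold. The glycine carrier SLC25A38 and the constitutive heme oxygenase HMOX2 did not pass the test. Over all 16277 tested genes, 14.0% were called by the edgeR quasi-likelihood test with Benjamini-Hochberg adjustment, 5.17% as higher and 8.79% as lower in knockout. The median log2 fold change was 0.32 over the 7 genes and 0.00 over all tested genes. Libraries of the genotypes did not overlap for 6 of the 7 genes, which was also the case for 68.5% of all tested genes.

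**Figure D1:**
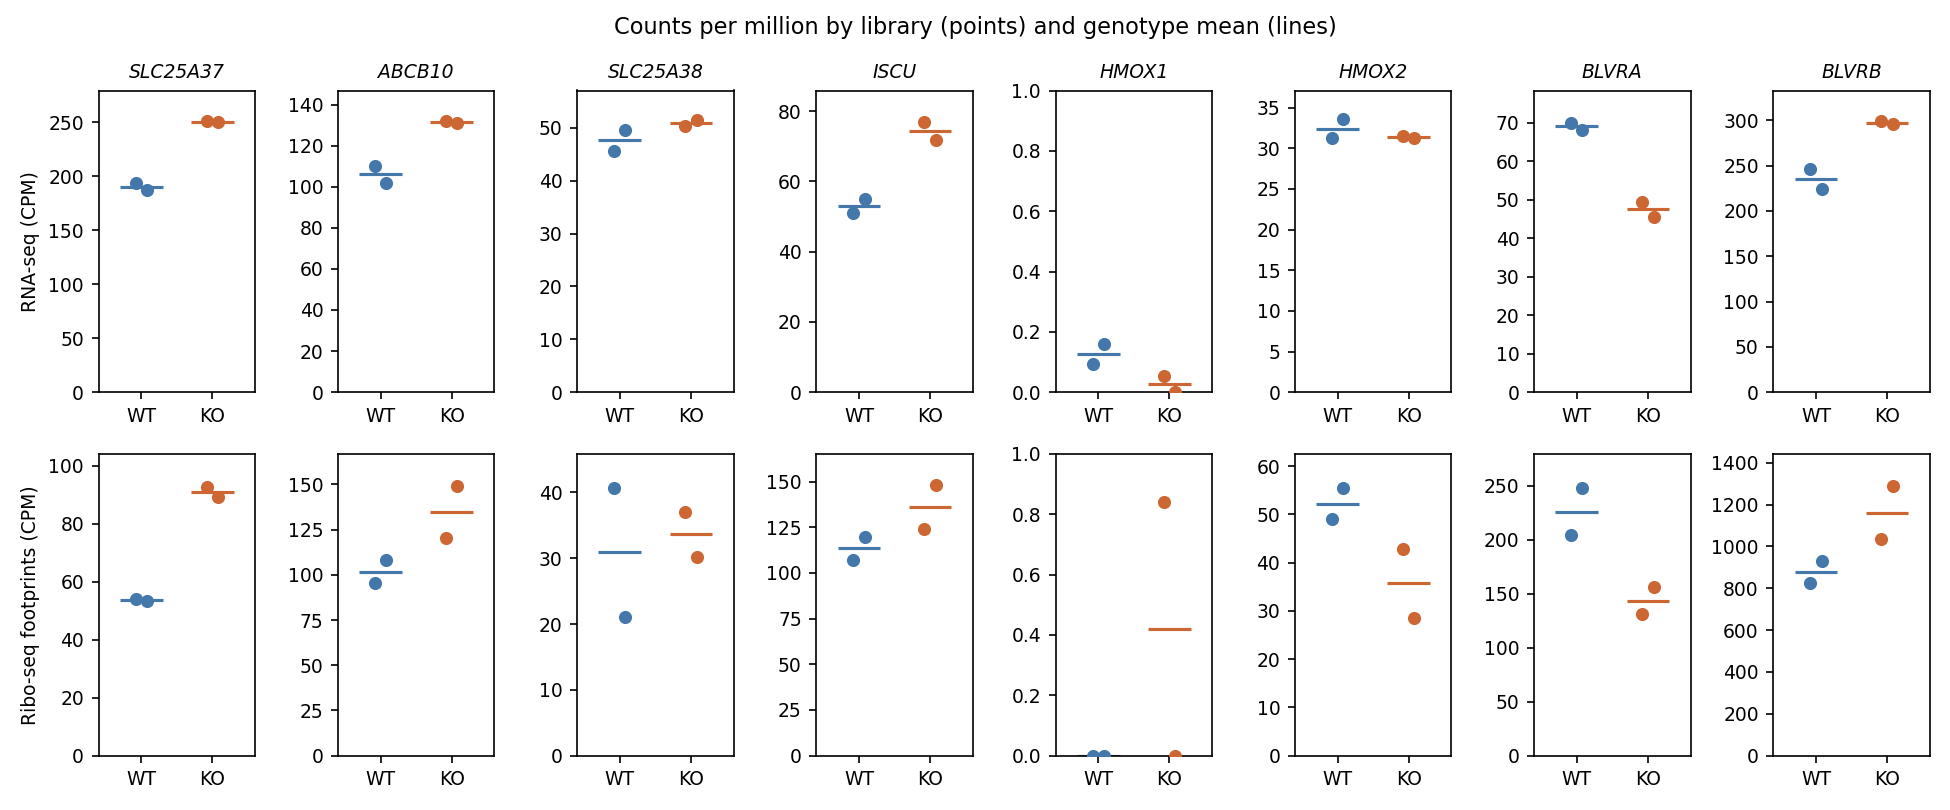
CPM (vertical axes, from 0, with a scale for each gene) of the 8 genes in RNA-seq (upper row) and ribosome footprints (lower row). Each point is 1 library, lines are genotype means, WT is wild type and KO is the NAT10 knockout. SLC25A37 RNA is near 250 CPM in knockout and under 195 in wild type, BLVRA lies lower in both knockout rows, and HMOX1 stays below 1 CPM throughout.

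SLC25A37 (mitoferrin-1, ENSG00000147454.14, chromosome 8) is the main iron importer of the inner mitochondrial membrane in erythroid cells. Its RNA was at 251 and 250.3 CPM in the knockout libraries against 194 and 187 CPM in wild type. All knockout values lay above both wild type values. The log2 fold change was 0.40 (SE 0.0774, edgeR adjusted p = 0.0131), and it ranged from 0.37 to 0.48 over the alternative settings. Its footprints were at 92.6 and 89.1 CPM in knockout, from 110 and 56 counts, against 54.0 and 53.2 CPM in wild type, from 65 and 48 counts. The footprint libraries of each genotype lay close together and did not overlap. The log2 change was 0.77 (SE 0.205, edgeR adjusted p = 0.0498). SLC25A37 had the largest footprint change of the 7 genes, yet its adjusted p sat at the threshold. The call was lost without knockout replicate 1 (0.74, adjusted p = 0.127), without wild type replicate 1 (0.77, adjusted p = 0.170) or replicate 2 (0.76, adjusted p = 0.170), and with DESeq2 (0.76, adjusted p = 0.418).

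ABCB10 (ENSG00000135776.5, chromosome 1) is an inner-membrane transporter that binds and stabilises mitoferrin-1. ABCB10 RNA was at 132 and 131 CPM in knockout against 110.0 and 102 CPM in wild type, again without overlap. The log2 change of 0.32 (SE 0.0767, edgeR adjusted p = 0.0321) was past the threshold in edgeR and not in DESeq2 (0.35, adjusted p = 0.125). Footprints were at 120.4 and 149 CPM in knockout against 95.5 and 108 CPM in wild type, and the log2 change of 0.40 (interval at 95%, -0.01 to 0.80) did not pass (edgeR adjusted p = 0.246). The gene has pseudogene copies that could take or give reads in the counting. ABCB10P1 had 618 and 631 RNA counts in knockout against 253 and 308 in wild type, a log2 change of 0.48 (SE 0.115, edgeR adjusted p = 0.0305). ABCB10P4 stood at 0.69 (SE 0.207, edgeR adjusted p = 0.0649). The RNA values of ABCB10 and of its copies are therefore uncertain as single values, and both lay in the same direction.

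SLC25A38 (ENSG00000144659.13, chromosome 3) is the carrier that brings glycine into mitochondria for the first step of heme synthesis. RNA stood at 50.4 and 51.6 CPM in knockout against 45.6 and 49.7 CPM in wild type. Knockout values were higher, with the nearest pair 50.4 and 49.7 almost touching, and the log2 change of 0.10 had an interval of -0.13 to 0.33 (edgeR adjusted p = 0.550). Footprints were few, with 44 and 19 counts in knockout against 49 and 19 in wild type. The wild type libraries alone ranged from 21.1 to 40.7 CPM and enclosed both knockout values. The footprint log2 fold change was 0.11 (interval -0.59 to 0.82, edgeR adjusted p = 0.879) and moved between -0.24 and 0.70 over the alternatives, so no difference was detectable at this depth.

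ISCU (ENSG00000136003.16, chromosome 12) is the scaffold on which iron-sulfur clusters are assembled. Its RNA was at 76.8 and 71.7 CPM in knockout against 51.1 and 54.9 CPM in wild type, from 1391, 1348, 543 and 681 counts. Every knockout value lay above every wild type value by more than the spread of the wild type pair. The log2 fold change was 0.49 (SE 0.0855, edgeR adjusted p = 0.00899), the largest RNA rise of the 7 genes, and it ranged from 0.44 to 0.56 over the alternatives with no call lost. Footprints were at 124 and 148 CPM in knockout against 107 and 119.8 CPM in wild type. The libraries did not overlap, but the log2 change of 0.25 (interval -0.14 to 0.64) did not pass (edgeR adjusted p = 0.450). Whether the footprint change of ISCU is smaller than its RNA change was tested as translational efficiency below and did not pass.

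HMOX1 (ENSG00000100292.18, chromosome 22), the stress-inducible heme oxygenase that is repressed by BACH1 and induced through NRF2, was nearly absent. It had 1 and 0 RNA counts in the knockout against 1 and 2 in the parental libraries. With exact binomial limits (95%, Clopper-Pearson) the 2 genotypes allowed at most 0.151 CPM in knockout and 0.379 CPM in wild type. Footprints were 1 and 0 counts in knockout against 0 and 0 in wild type, and the same limits allowed at most 3.10 CPM in knockout and 1.73 CPM in wild type. These limits cover counting error only. Both genotypes were at or under a floor of 3 counts, so no fold is given. Of the genes present in both count tables, 27.2% had no more RNA counts than the 4 of HMOX1. Macrophages, which degrade heme, carry much HMOX1, and 6 of the 8 monocyte and macrophage markers (CD14, CSF1R, CD163, MRC1, MARCO and FCGR3A) had 0 footprints in every library, while none was at 0 in every RNA library. The whole list summed to 16.0 and 3.18 CPM in knockout footprints against 39.0 and 48.8 in wild type. LYZ, lysozyme, was lower in RNA (-1.06, edgeR adjusted p = 0.0101) and in footprints (-1.89, edgeR adjusted p = 0.0474, just under the threshold). DESeq2 did not call its RNA (adjusted p = 0.0616) and gave no adjusted p for its footprints.

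HMOX2 (ENSG00000103415.12, chromosome 16) is the constitutive heme oxygenase. HMOX2 RNA was at 31.5 and 31.2 CPM in knockout against 31.2 and 33.6 CPM in wild type, so the genotypes overlapped. The log2 fold change was -0.04 with an interval of -0.30 to 0.22 (edgeR adjusted p = 0.844), and its sign turned in some alternatives (-0.09 to 0.03). Footprints were at 42.9 and 28.6 CPM in knockout, the latter from 18 counts, and at 49.0 and 55.5 CPM in wild type. They did not overlap, yet the log2 change of -0.48 (interval -1.04 to 0.08) did not pass (edgeR adjusted p = 0.317) and ranged from -0.85 to -0.28 over the alternatives. In the RefSeq gene table the span of HMOX2 overlaps NMRAL1, whose RNA log2 fold change was 0.12 (SE 0.0768, edgeR adjusted p = 0.337). No source used here gives the strand setting, so reads in the shared part cannot be assigned.

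BLVRA (ENSG00000106605.11, chromosome 7), the reductase that makes bilirubin from the biliverdin of adult heme breakdown, was the 1 gene that fell. BLVRA RNA was at 49.5 and 45.5 CPM in knockout against 70.0 and 68.1 CPM in wild type, a gap several times the spread of the wild type pair. The log2 fold change was -0.54 (SE 0.0834, edgeR adjusted p = 0.00568) and ranged from -0.60 to -0.46 with no call lost. Footprints were at 131 and 156 CPM in knockout against 204 and 248 CPM in wild type, from 156, 98, 246 and 224 counts. They fell as well, by 0.66 (log2; SE 0.176, edgeR adjusted p = 0.0482). This footprint call was lost without knockout replicate 1 (-0.52, adjusted p = 0.206), without wild type replicate 1 (-0.81, adjusted p = 0.0612) or replicate 2 (-0.52, adjusted p = 0.264), and with DESeq2 (-0.66, adjusted p = 0.190).

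BLVRB (ENSG00000090013.11, chromosome 19), a flavin reductase of red cells that also acts on fetal forms of biliverdin, rose in RNA, opposite to BLVRA. It was at 299 and 296 CPM in knockout against 246 and 224 CPM in wild type. Knockout values lay above both wild type values. The log2 change was 0.34 (SE 0.0894, edgeR adjusted p = 0.0410). BLVRB also had the most footprints of the 8 genes, with 1229 and 810 counts in knockout against 995 and 840 in wild type. Scaled to depth these were 1035 and 1288 CPM against 826 and 932 CPM, without overlap. The footprint log2 change of 0.40 (SE 0.142) did not pass (edgeR adjusted p = 0.124). It passed with a replicate block (0.40, edgeR adjusted p = 0.000351) and not with DESeq2 (0.40, adjusted p = 0.229). With single libraries left out, the value ran from 0.23 without knockout replicate 2 to 0.56 without knockout replicate 1.

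Per kilobase of 1 coding transcript, the wild type RNA levels ran from BLVRB through BLVRA, ISCU, SLC25A37, ABCB10 and SLC25A38 to HMOX2. The wild type means were 251 ± 16.9 CPM per kilobase for BLVRB and 59.5 ± 1.13 for BLVRA (SD, n = 2). ISCU was at 49.6 ± 2.49, SLC25A37 at 40.8 ± 1.16, ABCB10 at 27.3 ± 1.54, SLC25A38 at 22.7 ± 1.37 and HMOX2 at 17.0 ± 0.871 CPM per kilobase (SD, n = 2). No neighbours in that order overlapped between their wild type libraries. In knockout BLVRA, at 40.9 CPM per kilobase, stood below ISCU at 69.5 and SLC25A37 at 53.7, while the order of the others was the same. No test of the order was run. The lengths are those of the transcripts described with the peaks below, and the mix of isoforms in the cells is not known from gene counts.

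In footprints, 1 of the 7 genes (SLC25A37) rose and 1 (BLVRA) fell, against 5.34% called among 8887 tested genes, 1.47% higher and 3.87% lower. The median log2 fold change was 0.25 over the 7 genes and 0.00 over all tested genes. Genotypes did not overlap for 6 of the 7 genes and for 51.5% of all tested genes. The sign in footprints was the sign in RNA for each of the 7 genes. Leaving out single libraries turned SLC25A38 below 0 in footprints, and HMOX2 turned above 0 in RNA in some alternatives. The share of all tested genes with the same sign in both assays was not computed.

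**Figure D2:**
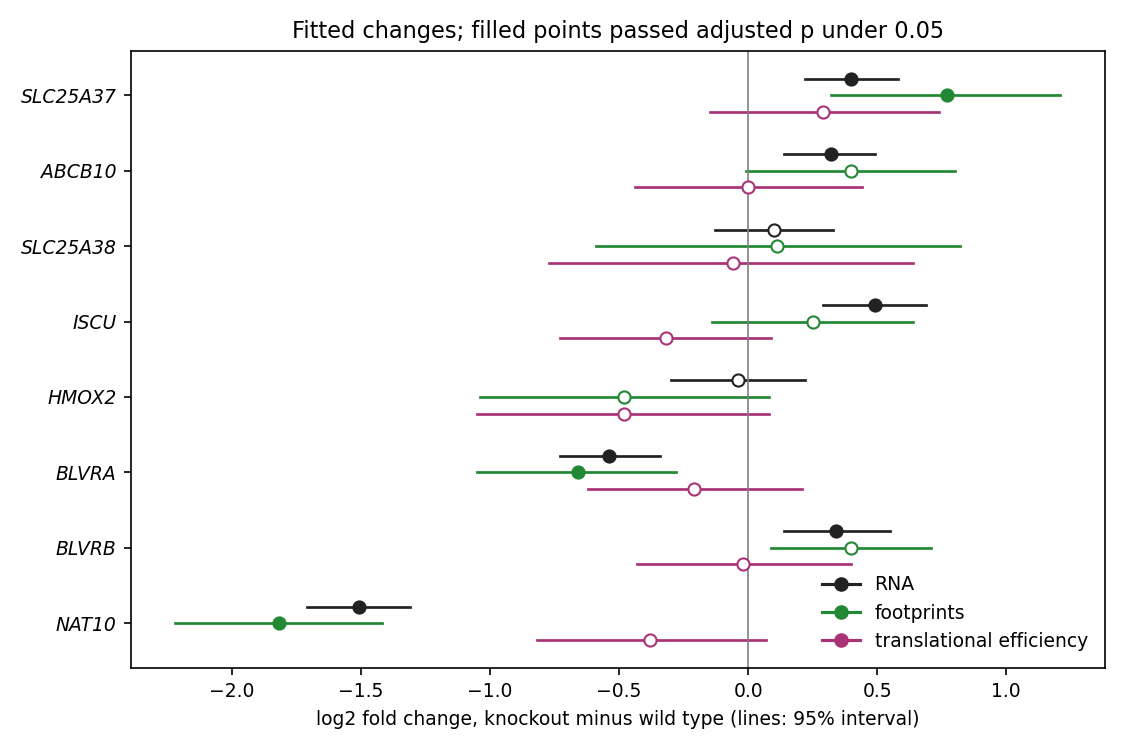
Log2 fold change, knockout minus wild type (horizontal axis), of the 7 tested genes and NAT10 in RNA, footprints and translational efficiency. Points are fitted values, lines are intervals at 95%, and filled points passed an adjusted p of 0.05. In RNA, 4 of the 7 genes lie right of 0 with filled points and BLVRA lies left, and no point for efficiency is filled.

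Translational efficiency, the footprint change relative to the RNA change, was tested as an interaction in 1 model of both assays. Of the 7 genes 0 were called by edgeR, 0 had an unadjusted p below 0.05, and 1 of 10299 tested genes (0.00971%) was called. The median was -0.06 over the 7 genes and -0.06 over all tested genes. SLC25A37 had the highest value at 0.29 (interval -0.15 to 0.74, edgeR adjusted p = 0.665). Its footprint CPM over RNA CPM, on the log2 scale, was -1.44 and -1.49 in knockout against -1.85 and -1.81 in wild type. HMOX2 was lowest at -0.48 (interval -1.05 to 0.08, edgeR adjusted p = 0.574), followed by ISCU at -0.32 (interval -0.73 to 0.09, edgeR adjusted p = 0.599). The ISCU ratio was 0.69 and 1.04 in knockout against 1.07 and 1.13 in wild type, with 1.04 close to 1.07. BLVRA stood at -0.21 (interval -0.62 to 0.21), SLC25A38 at -0.06 (-0.77 to 0.64), BLVRB at -0.02 (-0.43 to 0.40) and ABCB10 at 0.00 (-0.44 to 0.44). Every interval held both 0 and values about as large as the RNA changes, and equal efficiency is not shown by these tests.

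Genes beside each of the 8 on its chromosome had medians near 0. The counts of called neighbours are to be read beside the 5.17% called higher and 8.79% called lower over all genes tested in RNA. Around BLVRA, the 10 tested coding genes on each side had a median RNA log2 change of -0.02, and 2 of these 20 rose and 1 fell. The 20 neighbours of ISCU had a median of -0.13 (1 rose, 3 fell), against 0.49 for ISCU itself. For SLC25A37 the neighbour median was 0.07 (1 rose, 1 fell), for ABCB10 -0.10 (1 rose, 2 fell) and for BLVRB -0.02 (1 rose, 2 fell). Neighbours of SLC25A38, HMOX2 and HMOX1 had medians of -0.12, 0.05 and -0.02. None of the 8 genes lies on chromosome 11, which carries NAT10. Gene order was taken from RefSeq on GRCh38.p14.

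**Figure D3:**
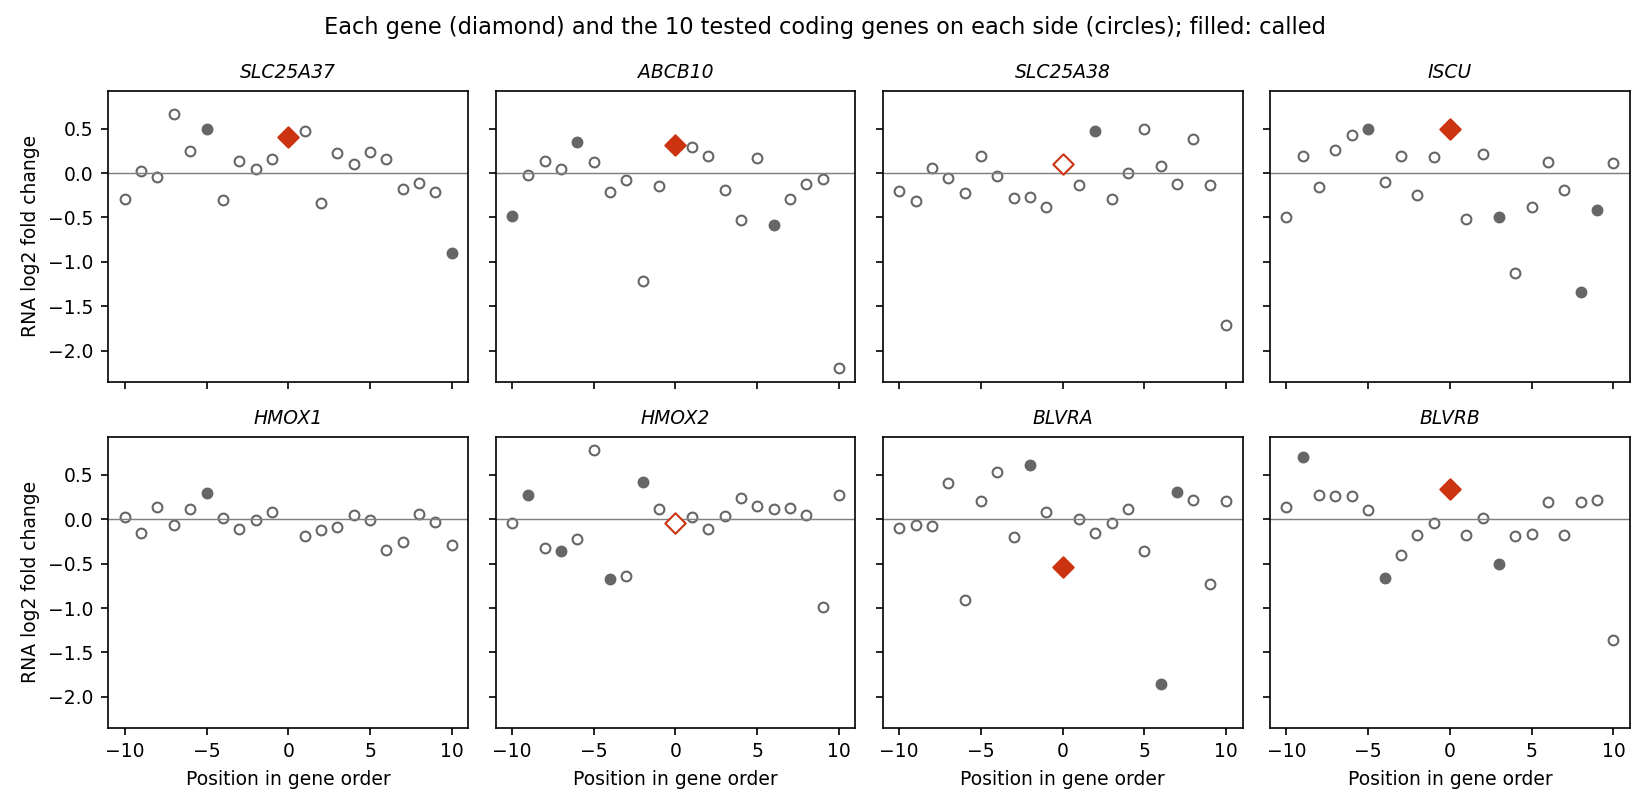
RNA log2 fold change (vertical axis) of each gene (diamond, position 0) and of the 10 tested coding genes on either side in gene order (circles). Filled symbols passed an adjusted p of 0.05, and HMOX1, with too few counts, has no diamond. Circles scatter on both sides of 0 around BLVRA, whose diamond is at -0.54, and around ISCU, whose diamond is at 0.49.

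Of 12 other genes of heme synthesis 1 rose in RNA and 0 fell by edgeR, against 5.17% higher and 8.79% lower over all tested genes. Their median log2 change was 0.15, with 7 at an unadjusted p below 0.05 and 2 called by DESeq2. No share of all tested genes was taken at the unadjusted threshold. Such counts, here and for the lists below, cannot be read as shifts of a list. The DESeq2 counts are to be read beside its total over all genes, given in the last section. In footprints 0 of the 12 were called by edgeR, against 5.34% over all tested genes, and 0 by DESeq2. Of the 12 footprint tests 1 had an unadjusted p below 0.05 (median 0.16). The gene that rose was FECH, ferrochelatase, which inserts iron into protoporphyrin and forms a complex with SLC25A37 and ABCB10. FECH RNA was at 109 and 114 CPM in knockout against 84.5 and 79.7 in wild type, a log2 change of 0.45 (SE 0.0738, edgeR adjusted p = 0.00692). FECH footprints stood at 0.36 (SE 0.160, edgeR adjusted p = 0.212). DESeq2 also called UROD (adjusted p = 0.0310), which edgeR did not (0.29, adjusted p = 0.0617). ALAS2, the first enzyme of the path in erythroid cells, was at 0.47 in RNA (SE 0.173, edgeR adjusted p = 0.113) and was not called. ALAS2 footprints stood at 0.15 (SE 0.441, edgeR adjusted p = 0.879). CPOX (-0.33), ALAD (-0.10) and ALAS1 (-0.08) lay below 0 in RNA and were not called.

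The iron-sulfur genes other than ISCU changed in both directions. Of 20 tested in RNA 4 rose and 2 fell by edgeR, against 5.17% higher and 8.79% lower over all tested genes. Their median was 0.06, and 3 were called by DESeq2. Of 19 tested in footprints 1 fell and 0 rose (median 0.04), against 3.87% lower and 1.47% higher over all tested genes. FDXR, the reductase that feeds electrons to mitochondrial ferredoxins, fell by 1.07 (log2) in RNA (SE 0.0834, edgeR adjusted p = 0.000361). FDXR RNA was at 74.1 and 74.9 CPM in knockout against 164 and 150.5 in wild type. FDXR footprints fell too, from 436 and 534 CPM in wild type to 179 and 191 in knockout, a log2 change of -1.39 (SE 0.160, edgeR adjusted p = 0.000737). MMS19, which targets clusters to nuclear and cytosolic enzymes, fell by 0.52 (SE 0.0726, edgeR adjusted p = 0.00371). In footprints MMS19 stood at -0.64, with an edgeR adjusted p of 0.0694. NDUFAB1, the mitochondrial acyl carrier protein that also binds the assembly complex, rose by 0.28 in RNA (SE 0.0719, edgeR adjusted p = 0.0379), and DESeq2 did not call it. The other 3 that rose, named after their values were seen, were BOLA3 (0.46, edgeR adjusted p = 0.0398), HSPA9 (0.32, edgeR adjusted p = 0.0425) and CIAO2B (0.32, edgeR adjusted p = 0.0498). DESeq2 called HSPA9 (adjusted p = 0.0250) and neither BOLA3 nor CIAO2B (adjusted p = 0.298).

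Of 11 other genes of mitochondrial iron and heme transport tested in RNA 0 were called by edgeR, against 14.0% of all tested genes. DESeq2 called 0 of the 11, while 4 had an unadjusted p below 0.05, and the median was -0.02. SLC25A28, the mitoferrin of non-erythroid tissues, was at 17.3 and 16.5 CPM in knockout against 21.5 and 14.3 in wild type, so the genotypes overlapped. Of 10 tested in footprints 1 fell, against 3.87% lower over all tested genes. It was PGRMC1, a heme-binding membrane protein that associates with ferrochelatase. Its footprints were at 27.8 and 35.0 CPM in knockout against 73.9 and 75.4 in wild type, a log2 change of -1.28 (SE 0.239, edgeR adjusted p = 0.0100). The call was not made by DESeq2 (-1.27, adjusted p = 0.103), and PGRMC1 RNA stood at -0.38 (edgeR adjusted p = 0.0751).

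The regulators of heme oxygenase had ample RNA counts while HMOX1 was near 0. BACH1, the heme-sensing repressor of HMOX1, was at 139 and 138 CPM in knockout RNA against 143 and 144 in wild type (log2 fold change -0.05, SE 0.0697, edgeR adjusted p = 0.715). Of 11 such genes 2 rose and 0 fell in RNA (median 0.09), against 5.17% higher and 8.79% lower over all tested genes. In footprints 0 of the 11 were called by edgeR, against 5.34% over all tested genes, and 0 by DESeq2. Of the 11 footprint tests 2 had an unadjusted p below 0.05 (median 0.06). NFE2L2, which encodes the activator NRF2, was at 0.29 (SE 0.0688, edgeR adjusted p = 0.0288; not called by DESeq2, 0.33, adjusted p = 0.143). MAFG, the small partner of both BACH1 and NRF2, rose by 0.42 (SE 0.0866, edgeR adjusted p = 0.0176). Among 14 other targets of NRF2 and BACH1, 1 rose and 1 fell in RNA by edgeR (median 0.19). These counts are to be read beside the same shares over all tested genes. DESeq2 called TXN and FTH1, and edgeR did not call FTH1, ferritin heavy chain (log2 change 0.31). Thioredoxin TXN rose by 0.41 (SE 0.0683, edgeR adjusted p = 0.00795), while the autophagy receptor SQSTM1 fell by 0.41 (SE 0.0705, edgeR adjusted p = 0.00842; DESeq2 adjusted p = 0.0571). SQSTM1 was also the 1 of 13 called in footprints, at -0.78 (SE 0.174, edgeR adjusted p = 0.0228), against 5.34% called over all tested genes. That call was lost without knockout replicate 1 (-0.62) or wild type replicate 2 (-0.58).

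**Figure D4:**
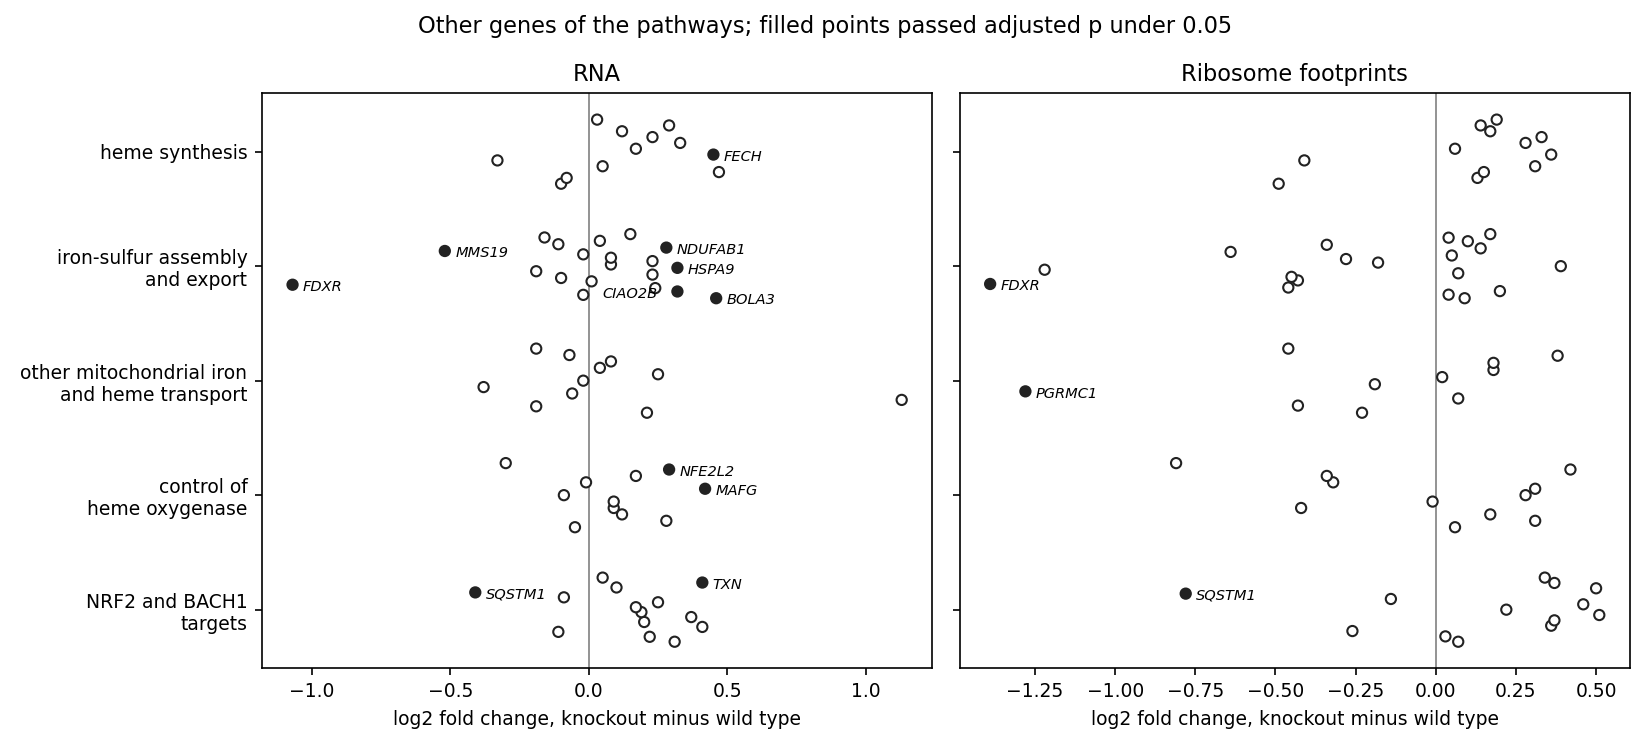
Log2 fold change, knockout minus wild type, of the other genes of 5 pathway lists in RNA (left) and footprints (right), with 1 point per tested gene. Filled, labelled points passed an adjusted p of 0.05. FDXR lies furthest left among the filled points of both panels, at -1.07 and -1.39, and heme synthesis has FECH as its 1 filled point.

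The acRIP-seq lists give regions on transcript sequences where reads were enriched over input, each with 1 or more summits and the authors' fold enrichment at the summit. Of the 8 genes 7 had regions in all 4 lists and HMOX1 had none. In wild type the ac4C antibody list held 49 regions on transcripts of these genes and the IgG list 52. Of the 49 antibody regions 0 lacked an overlapping IgG region on the same transcript, against 6.65% of all 45288 antibody regions. Counted by gene, 0 of 7 had such a region, against 19.9% of all listed genes. In turn 3 IgG regions, on ABCB10, BLVRA and ISCU, lacked an antibody region, or 5.77% against 6.45% of all IgG regions. The wild type antibody and IgG regions thus overlapped almost throughout on these genes, and the lists give no replicate error for either.

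SLC25A37 shows this on its 4672-base transcript SLC25A37-206, where the antibody regions covered 99.4% and the IgG regions 99.5% in wild type. The top summits of both lists lay at base 1554, with folds of 30.51 for the antibody and 35.78 for IgG. On BLVRB-205 coverage was 97.3% and 97.4%, with top folds of 57.46 and 59.63 at summits 6 bases apart. BLVRA-202 had top folds of 26.46 and 28.07, ISCU-202 17.74 and 19.76, ABCB10-201 13.38 and 14.78, SLC25A38-209 7.63 and 8.21 and HMOX2-218 2.66 and 2.31. These folds are the authors' own values per peak and are set side by side without a test. In wild type the top summits lay 114 bases apart on BLVRA-202, 10 on ISCU-202, 12 on ABCB10-201, 16 on SLC25A38-209 and 252 on HMOX2-218.

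In knockout, 12 of 46 antibody regions had no IgG region, 26.1% against 20.3% of all 80709. They lay on 4 of 7 genes (SLC25A37, SLC25A38, ISCU and BLVRA), and 37.3% of all listed genes had such a region. All 12 had summit folds between 2.29 and 4.90. The 4 regions of ISCU lay near the start of 4 isoforms, from base 26 at the earliest, and isoforms of 1 gene share sequence. On IgG, 1 of 40 knockout regions lacked an antibody region, 2.50% against 12.2%. Both knockout lists were longer than the wild type lists, with 80709 and 77341 regions against 45288 and 45424, so a difference in number between genotypes cannot be read as a change in acetylation.

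HMOX2 had regions on fewer transcripts in knockout. Its regions lay on 12 transcripts in the wild type antibody list and on 1 in the knockout antibody list. Of all genes in the wild type antibody list, 31.3% had fewer listed transcripts in knockout. The same numbers, 12 and 1, held in the IgG lists. Among genes with 10 or more listed transcripts in wild type, 6.58% of 851 had at most 1 in knockout in the antibody lists and 7.91% of 822 in the IgG lists. HMOX2-218 had no region in either knockout list, and its wild type regions covered 42.1% (antibody) and 40.9% (IgG) of 1908 bases. The lower number was thus present in the control as in the antibody list, and no test can be made of it.

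**Figure D5:**
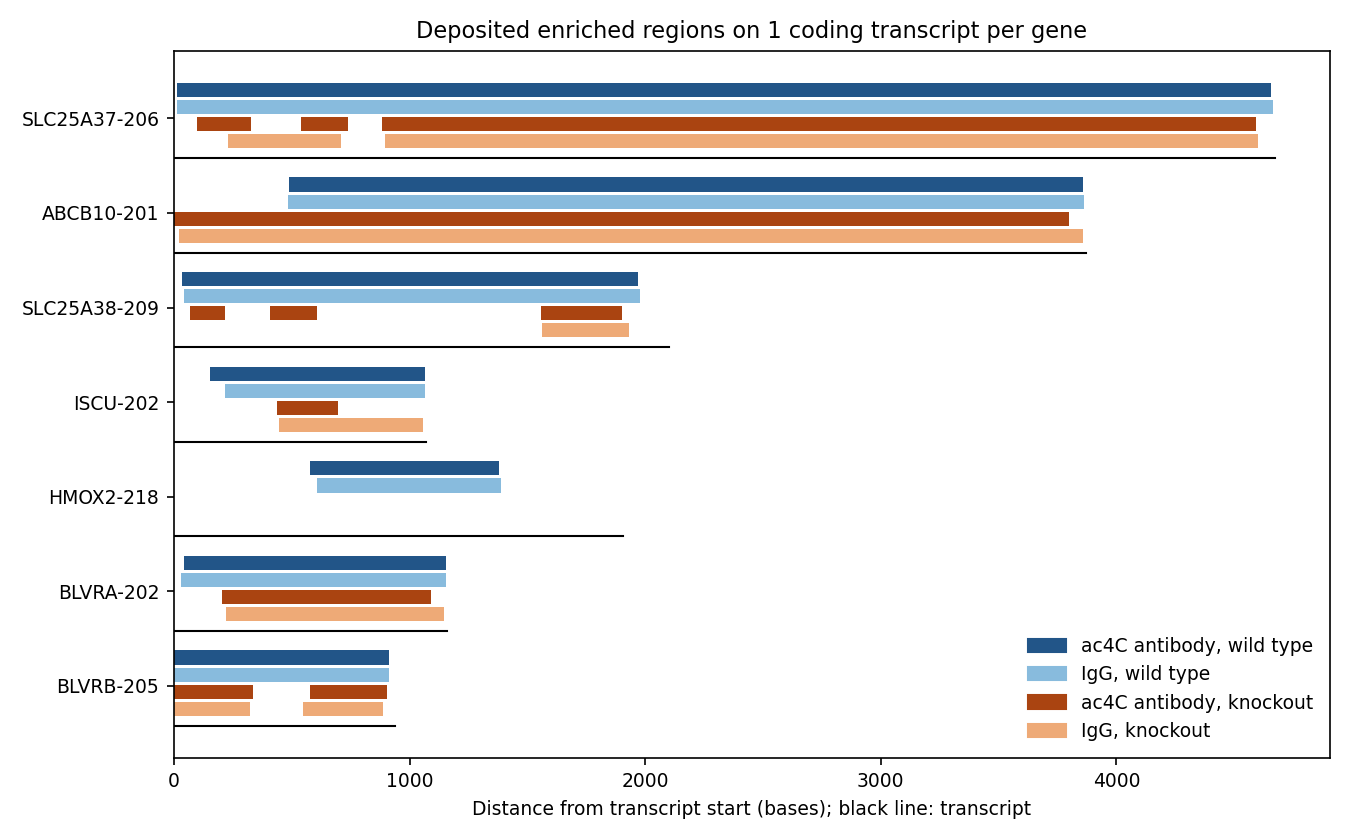
Enriched regions of the 4 deposited lists (coloured bars) on 1 coding transcript of each of 7 genes (black lines), by distance from the transcript start in bases. In wild type the antibody and IgG bars of each transcript nearly coincide, as on SLC25A37-206 with 99.4% and 99.5% covered, and HMOX2-218 has no bar in knockout.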

How the data were processed

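RNA-seq and ribosome footprints were deposited as whole-number read counts per gene, made after removal of duplicate reads per the file headers. Removing duplicates without molecular identifiers can lower the counts of abundant transcripts. Tools listed in the submitters' processing notes, with no role or version, are STAR, featureCounts, SAMtools, cutadapt, Trimmomatic and DESeq2, and for peaks MACS2, Bowtie2, bedtools and ChIPseeker. The build listed there is GRCh38.p13. The deposited peak lists hold, per the names inside the lists, peaks called against input on merged libraries, and the authors' columns hold fold enrichment (a ratio), −log10 q and a score that was not used. Several summits can share 1 region, and regions were compared by an overlap of at least 1 base. Peak values are the authors'.

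Counts were analysed here in R 4.3.3 by edgeR 4.0.16 (scaling by TMM, filterByExpr, quasi-likelihood F test, adjusted p under 0.05). Pseudoautosomal duplicates on Y (44 and 18 identifiers) were dropped, and 60419 of 60616 and 20352 of 20401 identifiers had a symbol. With 1 residual degree of freedom, the fit of RNA assumed that the lone summed knockout sample varies like wild type. CPM values use libraries kept apart. The biological coefficient of variation was 9.12% in RNA, 12.0% in footprints and 7.69% for efficiency. Fits were tested on simulated data. The genes, the pathway lists and the tests were chosen with earlier results of these data known. Named were NAT10, the 8 genes and, per pathway list and comparison, up to 3 called genes with the lowest adjusted p. ALAS1, ALAS2, ALAD, CPOX, UROD, SLC25A28, BACH1, FTH1, NMRAL1, LYZ, the called erythroid markers and the ABCB10 pseudogenes are outside this rule. They were chosen after their values were seen. Each transcript shown is the coding one in most of the 4 lists, the longest where tied. Some list members are not reported here. Alternatives were RLE scaling, no filter, DESeq2 1.42.0, knockout RNA kept apart, a replicate block and leaving out each library.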

Additional observations from a re-analysis of the deposited data

How the results depend on the processing

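The RNA calls of 5 of the 7 genes held under every alternative with a test apart from DESeq2, which called 4 and lost ABCB10. In footprints DESeq2 called 0 of the 7, a replicate block 3, and leaving out single libraries between 0 and 2. In efficiency 0 of the 7 were called under any alternative. Called genes overall numbered 2271 in RNA, 3513 with no filter, 1042 with DESeq2, 5476 with knockout RNA kept apart and 4983 with a replicate block. In footprints they numbered 475, 889 with no filter, 169 with DESeq2, 1594 with a replicate block and 264 to 716 with 1 library left out. In efficiency the count was 1, 71 with no filter, 7 with knockout RNA kept apart, 266 with a replicate block and 0 to 5 with 1 library left out. The cause of these shifts was not tested, and the block and kept-apart fits treat the near-identical knockout RNA libraries as separate. Same-numbered footprint libraries deviated together with a correlation of 0.231 over genes and RNA libraries with -0.0138. No label ties the numbers to a batch or day and there are only 2 pairs, so whether the numbers pair the libraries is not known. Without either wild type RNA library no residual degrees of freedom were left, so those settings gave values with no test, and each of the 5 called genes kept its direction. Antibody-only regions of the 8 genes in wild type numbered 0, 1 when at least 50% overlap was asked and 1 when both lists were held to a fold of at least 2. In knockout they numbered 12, 18 with the 50% overlap, 10 with a −log10 q of at least 5 and 12 with the fold limit. Depth limits SLC25A38 and HMOX2 in footprints, where libraries held as few as 19 and 18 counts.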
